A study of Rattus norvegicus with 6 samples.

Results

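The miRNAs described here are the mature arms of 4 rat hairpins, miR-183, miR-96, miR-182 and miR-375, measured in the hypothalamic arcuate nucleus (ARC) after nerve injury. They were picked out by hairpin name, which found 5 of the 562 miRNAs listed for every library: rno-miR-183-5p, rno-miR-183-3p, rno-miR-96-5p, rno-miR-182 and rno-miR-375-3p. The hairpins were chosen with earlier results of these data known. The other arms of miR-96 and miR-375 have no value here and were not analysed. The libraries came from Sprague-Dawley rats aged 8 to 10 weeks on Day 14 after surgery. In the 3 CCI-ION libraries the rats had chronic constriction injury of the left infraorbital nerve, a branch of the trigeminal nerve, by loose silk ligatures. In the 3 sham libraries the nerve was exposed on 1 side and not tied. Neither group carried a transgene or received a drug by the labels. The study names more rats per group for its sequencing data than there are libraries. How these rats were divided among libraries, and whether both sides of the ARC were pooled, was not given in the sources used here, so the error of each value is the spread between libraries.

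miR-183, miR-96 and miR-182 are cut from a shared primary transcript in vertebrates. They are best known from sensory cells, such as hair cells of the inner ear, photoreceptors and olfactory and ganglion neurons, and the cluster has been linked to mechanical pain sensitivity in sensory ganglia. A miRNA finds its targets mainly through its seed, bases 2 to 8 from its 5′ end, and changes in the seed of miR-96 cause hearing loss. miR-375 comes from a separate locus and is abundant in endocrine cells, among them pancreatic islet and pituitary cells, where it has been linked to hormone secretion.

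The sequences of the 5 arms are shown because the cluster members resemble each other closely enough for their targets and their reads to be compared, whereas miR-375 does not. They are RefSeq sequences on assembly GRCr8, written 5′ to 3′ with the seed in capitals, and all lie on the minus strand.
rno-miR-183-5p (chr4:59756106-59756127): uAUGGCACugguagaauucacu
rno-miR-96-5p (chr4:59755901-59755923): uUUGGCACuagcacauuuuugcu
rno-miR-182 (chr4:59752249-59752273): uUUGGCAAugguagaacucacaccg
rno-miR-183-3p (chr4:59756067-59756087): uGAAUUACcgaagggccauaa
rno-miR-375-3p (chr9:83906591-83906612): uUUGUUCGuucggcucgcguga

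Counted from 1 at the 5′ end of the first miRNA named, miR-183-5p and miR-182 had the same base at 18 of 22 positions and differed by A2U, C8A, U17C and U22A. Of these, A2U and C8A fall in the seed. miR-96-5p and miR-182 shared all of bases 2 to 7 and differed in the last seed base by C8A, although they had the same base at only 12 of 23 positions. miR-183-5p and miR-96-5p differed within the seed by A2U alone. Each of the 3 cluster seeds was therefore distinct over bases 2 to 8, and no other miRNA among the 693 mature miRNAs of the reference table shared bases 2 to 8 with any of them. Outside the cluster, no miRNA of the table shared bases 2 to 7 with miR-183-5p, miR-96-5p, miR-182 or miR-375-3p. The closest mature miRNA to miR-183-5p in an ungapped comparison was miR-182, at 4 mismatches, and miR-375-3p was 9 mismatches from its closest, miR-1843a-3p.

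The hairpins of the cluster spanned 3908 bases on chromosome 4, with 97 bases between Mir183 and Mir96 and 3533 bases between Mir96 and Mir182. They overlapped no protein-coding gene and lay between Nrf1, which encodes a transcription factor, and Ube2h, which encodes a ubiquitin-conjugating enzyme. Mir375, on chromosome 9, lay within the annotated bounds of Cryba2, a crystallin gene, and of the uncharacterised LOC134480387.

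The libraries held between 8628309 and 14313839 reads assigned to miRNAs. Deposited values are normalized counts, that is, reads scaled by a factor particular to each library. Read numbers given below are worked out from the values, taking a step common to all values of a library as 1 read. That step was set so that the smallest value above 0 was 5 reads, and a value of 0 was read as fewer than 5 reads. CCI-ION replicates 2 and 3 had the fewest reads and the most miRNAs listed at 0, with 48 and 44 of 562 against 24 to 31 in the other 4 libraries. miRNAs typical of neurons, a main cell type of the ARC, were present in all 6 libraries, and none of the 7 in that list was at 0 in any library. Because the tissue was measured in bulk, a change in the number of cells of a type cannot be told apart from a change in the RNA of each cell.

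In the sham libraries, miR-375-3p, miR-182 and miR-183-5p were of similar abundance, with mean normalized counts of 3343 ± 384, 3112 ± 590 and 2786 ± 560 (SD, n = 3). The means of neighbours in this order differed by less than the spread between libraries. Within each sham library, miR-182 was above miR-183-5p, at ratios of 1.11, 1.13 and 1.12. miR-375-3p was above miR-182 in sham replicates 2 and 3 and below it in sham replicate 1. The means of miR-375-3p, miR-182 and miR-183-5p ranked 133, 136 and 145 among the 562 miRNAs. miR-96-5p was far lower at 197 ± 58.7 (SD, n = 3), rank 316. The passenger arm miR-183-3p was near the detection limit, with 6 to 8 reads in each sham library. Mature miRNAs are of like length, here 21 to 25 bases, so no length correction was applied, but how readily a sequence enters a library can differ between miRNAs.

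**Figure D1:**
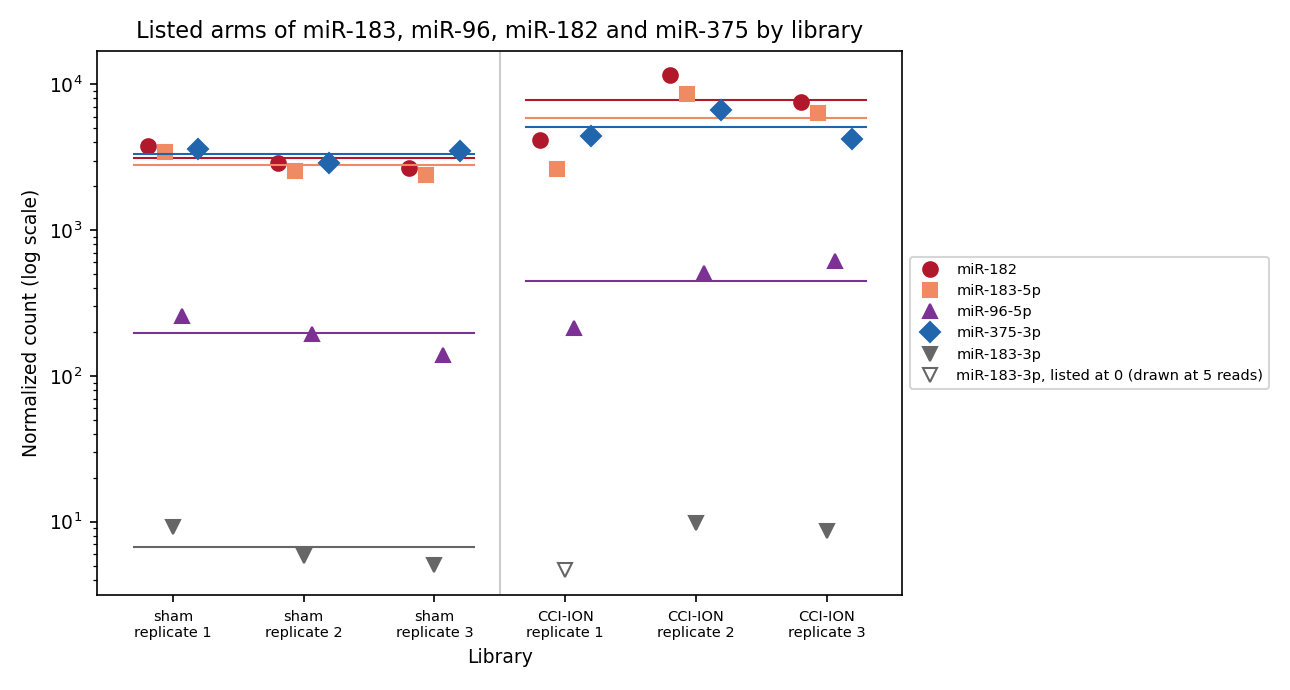
Normalized counts (log scale) of the 5 arms in each of the 3 sham and 3 CCI-ION libraries, with horizontal lines at the group means and the miR-183-3p value of CCI-ION replicate 1, listed at 0, drawn open at the level of 5 reads. The 3 cluster arms miR-182, miR-183-5p and miR-96-5p stood highest in CCI-ION replicates 2 and 3, whereas CCI-ION replicate 1 was close to the sham libraries.

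In the main comparison, with all 6 libraries and 1 as the pseudocount, miR-182 had the largest difference of the 5 arms. Its normalized counts were 3785, 2872 and 2680.4 in the sham libraries, by replicate number, and 4166, 11504 and 7595 in the CCI-ION libraries. Every CCI-ION library was above every sham library, although CCI-ION replicate 1 exceeded the highest sham library only slightly. The mean was 7755 ± 3672 (SD, n = 3) after CCI-ION, 2.49 times the sham mean. The log2 fold change was 1.21 (standard error 0.39, 95% interval 0.24 to 2.19), with an adjusted p of 0.107 from limma with Benjamini-Hochberg adjustment, and so did not pass the threshold of 0.05. It ranked 22 of the 555 miRNAs tested by fold change.

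miR-183-5p, the most similar to miR-182 in sequence, had normalized counts of 3425, 2550.0 and 2384 in the sham libraries and 2630.3, 8538 and 6335 in the CCI-ION libraries. The groups overlapped, because CCI-ION replicate 1 lay within the sham range while the other 2 were above it. The mean after CCI-ION was 5835 ± 2986 (SD, n = 3), 2.09 times the sham mean. The log2 fold change was 0.92 (standard error 0.46, 95% interval -0.22 to 2.07; limma adjusted p = 0.212).

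miR-96-5p, which shares bases 2 to 7 with miR-182, had normalized counts of 257, 194 and 139.9 in the sham libraries and 212, 507 and 615 in the CCI-ION libraries. Again CCI-ION replicate 1 lay within the sham range and replicates 2 and 3 were above it. The mean after CCI-ION was 444 ± 208 (SD, n = 3), 2.26 times the sham mean. The log2 fold change was 1.08 (standard error 0.46, 95% interval -0.07 to 2.23; limma adjusted p = 0.169). These values rest on 166 to 571 reads per library.

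miR-183-3p, the other arm of the miR-183 hairpin, had 8, 7 and 6 reads in the sham libraries and 0, 8 and 8 reads in the CCI-ION libraries. A count of 8 reads has an exact 95% Poisson interval of 3.45 to 15.8 reads, which covers all the other counts above 0, and a 0 stands for fewer than 5 reads, so no difference was detectable at this depth. Its log2 fold change was -0.67 (standard error 0.97; limma adjusted p = 0.646) and took the opposite sign, 0.44, without CCI-ION replicate 1, the library in which it was listed at 0. With 2.5 reads in place of 0 it was -0.096.

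miR-375-3p, the endocrine miRNA, had normalized counts of 3613, 2903 and 3513 in the sham libraries and 4451, 6633 and 4197 in the CCI-ION libraries. Each CCI-ION library was above all 3 sham libraries, and CCI-ION replicate 2 stood clearly above the other 2. The mean after CCI-ION was 5094 ± 1339 (SD, n = 3), 1.52 times the sham mean. The log2 fold change was 0.58 (standard error 0.22, 95% interval 0.05 to 1.12; limma adjusted p = 0.137).

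By limma with Benjamini-Hochberg adjustment, 0 of the 5 arms passed the threshold in either direction. Over all 555 miRNAs tested, 3.42% passed as higher in CCI-ION and 3.42% as lower, or 19 in each direction. That even split depended on the scaling, with 42 higher and 9 lower under total-count scaling and 10 higher and 84 lower under upper-quartile scaling, and none of the 5 arms passed under either. At an unadjusted p under 0.05, miR-182 and miR-375-3p were higher, against 15.5% of all miRNAs. The groups did not overlap for the same 2 arms, against 19.5% of all miRNAs that were higher without overlap. With an intensity trend in limma, in which the spread may depend on abundance, miR-182 passed with an adjusted p of 0.0468, whereas the other 4 arms did not, and 7.93% of all miRNAs passed as higher. All miRNAs tested had a median log2 fold change of -0.01, and the fold changes of miR-182, miR-183-5p, miR-96-5p and miR-375-3p were also positive under total-count, upper-quartile and the other scalings tried.

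The split of the CCI-ION libraries was the main feature of the cluster. Relative to its sham mean, miR-182 was at 1.34, 3.70 and 2.44 times in CCI-ION replicates 1, 2 and 3. miR-183-5p was at 0.944, 3.06 and 2.27 times, and miR-96-5p at 1.08, 2.57 and 3.12 times. Thus all 3 cluster arms were at over 2 times their sham mean in replicates 2 and 3. In replicate 1 they were at 0.944 to 1.34 times, with miR-182 highest and above every sham library. miR-375-3p differed less between the libraries, at 1.33, 1.98 and 1.26 times, with replicate 2 highest and replicate 1 above replicate 3. Among the 360 miRNAs with a sham mean of at least 100, the ratio of miR-182 in replicate 2 ranked 4, that of miR-183-5p ranked 5 and that of miR-96-5p ranked 9, whereas in replicate 3 they ranked 17, 23 and 7 and in replicate 1 they ranked 59, 206 and 138.

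**Figure D2:**
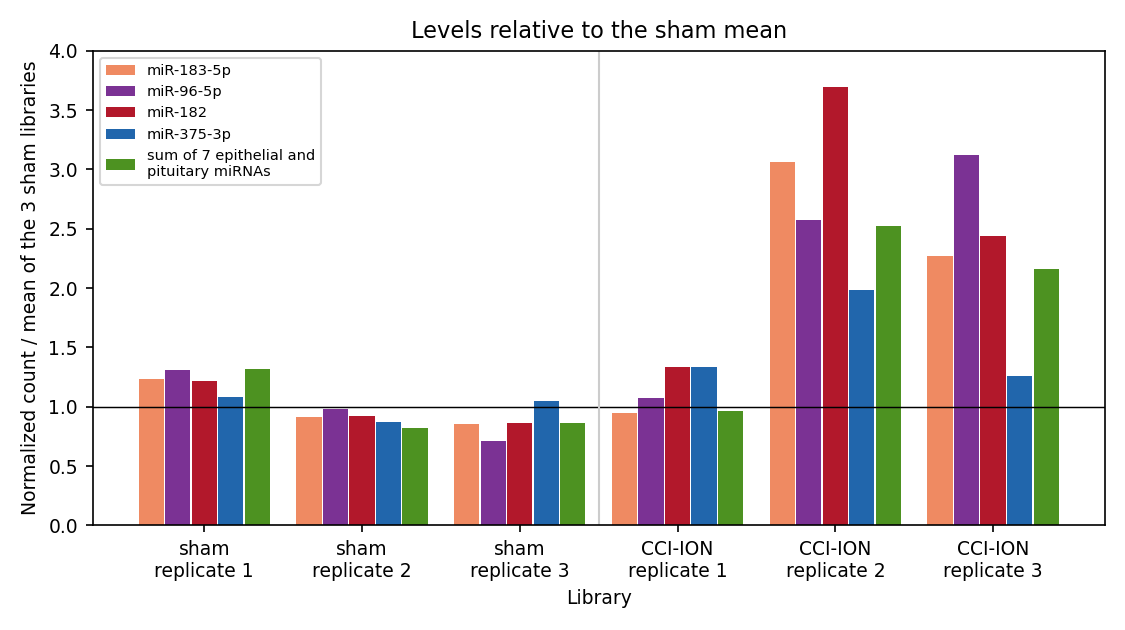
Bars give each library's normalized count divided by the mean of the 3 sham libraries for miR-183-5p, miR-96-5p, miR-182, miR-375-3p and the sum of 7 miRNAs typical of epithelium and pituitary, with a line at the sham mean. In CCI-ION replicates 2 and 3 the cluster arms were at 2.27 to 3.70 times the sham mean and the sum at 2.16 to 2.52 times, and in CCI-ION replicate 1 the cluster arms were at 0.944 to 1.34 times and the sum at 0.962 times.

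This pattern was noticed in the members and then counted over the 364 miRNAs whose mean normalized count was 100 or more. CCI-ION replicates 2 and 3 were both above the other 4 libraries for 16.5% of them, including the 3 cluster arms but not miR-375-3p. In 3.3% both were also at least 2 times the sham mean, which left 12 miRNAs: the 3 cluster arms, miR-200a-3p, miR-200a-5p, miR-200b-3p, miR-143-3p, miR-148a-3p, miR-199a-5p, miR-214-3p, miR-378a-3p and miR-378b. In 1.1%, or 4 miRNAs, CCI-ION replicate 1 was in addition not above the highest sham library, and these were miR-183-5p, miR-96-5p, miR-200a-3p and miR-200b-3p. CCI-ION replicates 2 and 3 were also the libraries with the fewest reads, and the part of depth in the pattern was not tested.

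Without CCI-ION replicate 1, the log2 fold changes were 1.60 for miR-182, 1.42 for miR-183-5p, 1.54 for miR-96-5p and 0.66 for miR-375-3p. The corresponding limma adjusted p values were 0.0522, 0.0522, 0.0570 and 0.157, and the 3 cluster arms again did not pass the threshold. In that comparison 1.44% of the 557 miRNAs tested passed as higher in CCI-ION, and 15.4% were higher at an unadjusted p under 0.05, the 3 cluster arms among them.

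**Figure D3:**
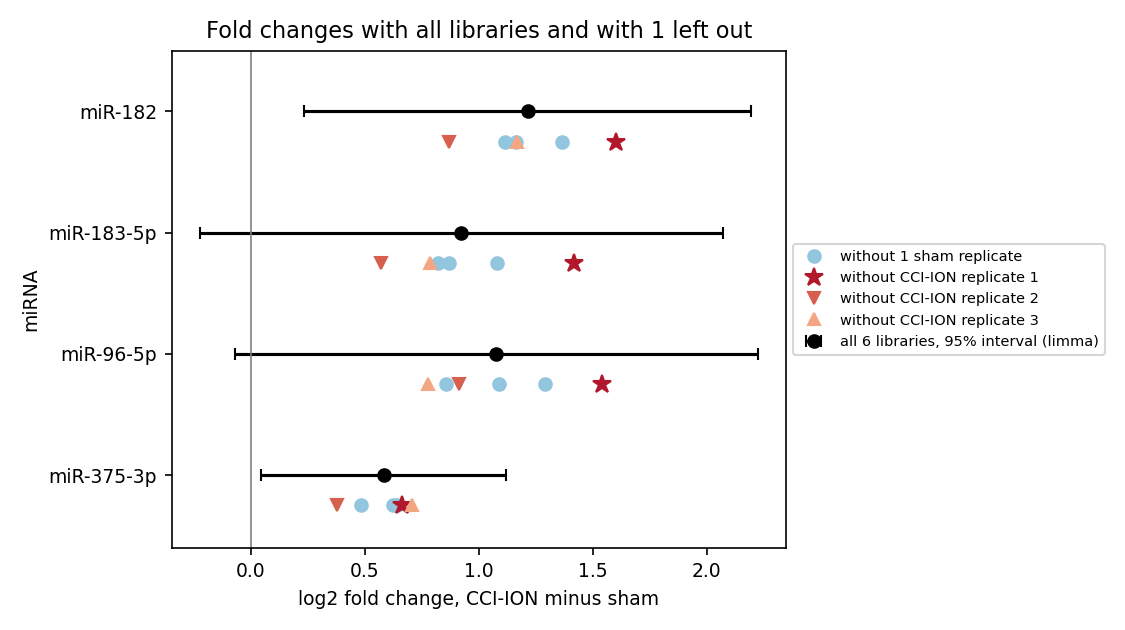
Log2 fold change (CCI-ION minus sham) of miR-182, miR-183-5p, miR-96-5p and miR-375-3p with all 6 libraries (black, bars are 95% intervals from limma, not adjusted over miRNAs) and, under each, with 1 library left out (colored). The fold changes of the 3 cluster arms were highest without CCI-ION replicate 1, at 1.42 to 1.60, and every point, though not every interval, was above 0.

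The cluster arms also spread widely within the CCI-ION group. The SD of log2 values between CCI-ION libraries was 0.88 for miR-183-5p, 0.82 for miR-96-5p, 0.74 for miR-182 and 0.36 for miR-375-3p, against a median of 0.19 over the 364 miRNAs. These ranked 9, 13, 19 and 60 among them. Between sham libraries the SDs were 0.28, 0.44, 0.26 and 0.17, against a median of 0.13. Sham replicate 1 was the highest sham library for each of the 3 cluster arms.

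**Figure D4:**
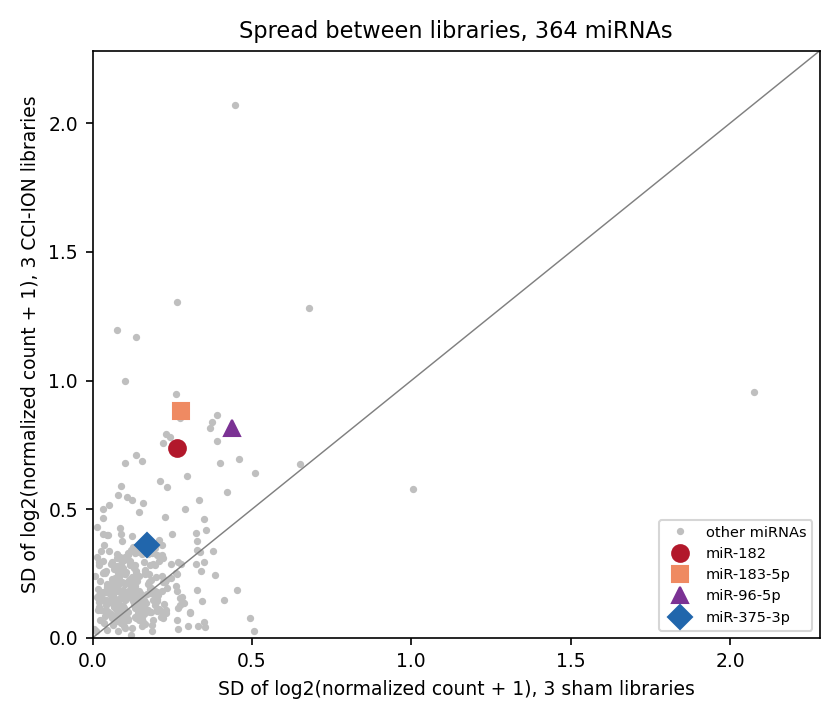
SD of log2(normalized count + 1) between the 3 sham libraries (x axis) and between the 3 CCI-ION libraries (y axis) for the 364 miRNAs of mean normalized count 100 or more, with the members marked and a line where both are equal. The 3 cluster arms lay at 0.74 to 0.88 on the CCI-ION axis, above the median of 0.19, and miR-375-3p at 0.36.

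Ratios between the members remove whatever scaled them together. In the sham libraries, miR-182 and miR-183-5p kept a nearly fixed ratio of 1.11, 1.13 and 1.12. In the CCI-ION libraries the ratio was 1.58, 1.35 and 1.20, above every sham library, and highest in replicate 1, where miR-182 was at 1.34 times and miR-183-5p at 0.944 times the sham mean. The counting intervals (95% exact) were 1.51 to 1.66, 1.31 to 1.39 and 1.16 to 1.24 in CCI-ION replicates 1, 2 and 3, and cover counting error only, not differences between libraries. The mean log2 ratio was higher by 0.29 after CCI-ION, with an SD of 0.015 in sham and 0.20 in CCI-ION, and the exact two-sided permutation p was 0.1, the smallest that 3 libraries against 3 can give. Of the sum of the cluster's 4 arms, miR-182 made up 50.6% to 51.5% in the sham libraries and 59.4%, 56.0% and 52.2% in CCI-ION replicates 1, 2 and 3.

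The ratio of miR-96-5p to miR-183-5p was 0.0751, 0.0760 and 0.0587 in the sham libraries and 0.0807, 0.0593 and 0.0970 in the CCI-ION libraries. The groups overlapped, and the mean log2 difference of 0.15 had an exact permutation p of 0.4. The ratio of miR-375-3p to miR-183-5p was 1.05, 1.14 and 1.47 in the sham libraries and 1.69, 0.777 and 0.663 in the CCI-ION libraries. CCI-ION replicate 1 lay above all sham libraries and replicates 2 and 3 below them, so that miR-375-3p was the most abundant of the members in CCI-ION replicate 1 and the third in replicates 2 and 3. The mean log2 difference was -0.34 (exact permutation p = 0.5), and ranged from -0.75 without CCI-ION replicate 1 to -0.077 without CCI-ION replicate 3.

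**Figure D5:**
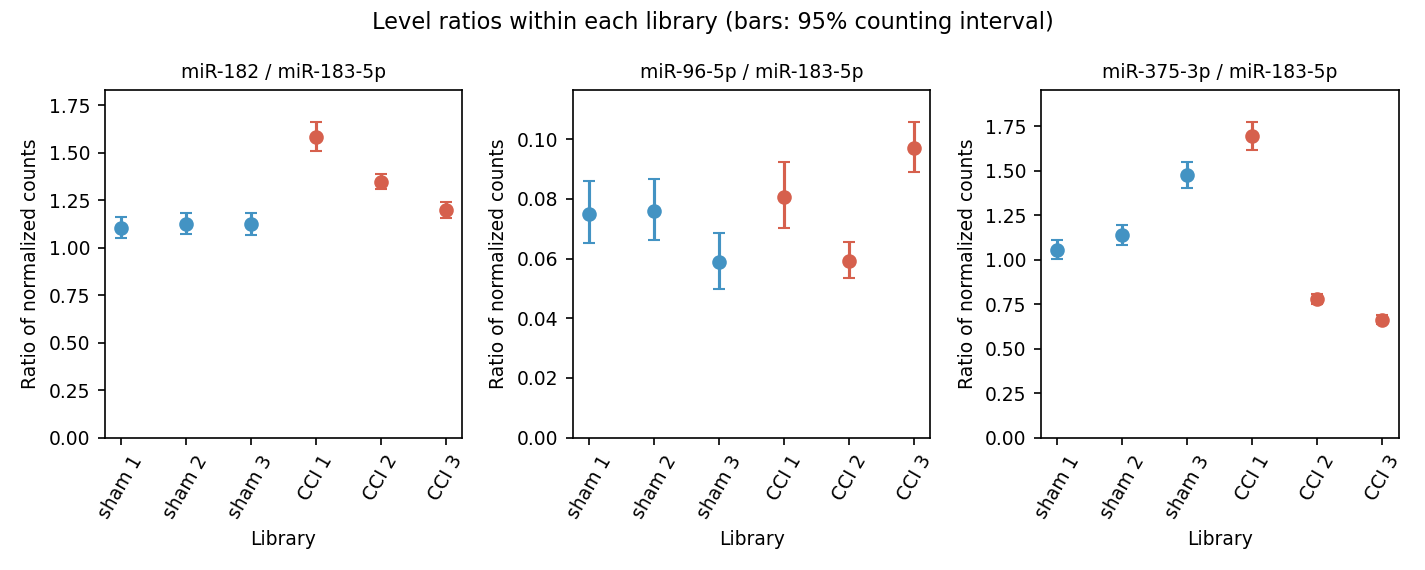
Ratios of miR-182, miR-96-5p and miR-375-3p to miR-183-5p in each library (sham blue, CCI-ION red, labelled CCI), with exact 95% counting intervals as bars. The ratio of miR-182 to miR-183-5p was 1.11 to 1.13 in sham and 1.20 to 1.58 in CCI-ION libraries, and the ratio of miR-375-3p to miR-183-5p ranged from 0.663 to 1.69 within CCI-ION.

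The 2 arms of the miR-183 hairpin were very unequal. The 5p arm had 375, 438 and 471 times the normalized count of the 3p arm in the sham libraries, and 876 and 736 times in CCI-ION replicates 2 and 3, while the 3p arm was listed at 0 in replicate 1. The hairpin was below the minimum of 10 set for both arms and entered the comparison of arm ratios only where that minimum was 1. There the log2 ratio of 5p to 3p was higher by 1.60 after CCI-ION (standard error 0.55; limma adjusted p = 0.127) and did not pass, whereas 10.5% of 190 hairpins did. The value rests on the 3p arm at 0 in CCI-ION replicate 1. Without that library it was 0.98 (limma adjusted p = 0.0482) and passed, as did 6.32% of the hairpins. With 2.5 reads in place of 0 it was 1.02 (limma adjusted p = 0.0130) and passed, as did 11.1% of the hairpins. Each 3p value rests on at most 8 reads.

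The deviations of each library from its group mean were compared between miRNAs as a description, over the 6 libraries, which are dominated by the spread of the CCI-ION libraries and share their scaling. Over 363 other miRNAs, those most like miR-183-5p were miR-200c-3p (Pearson r = 0.99), miR-151-3p (0.99) and miR-182 (0.99). Those most like miR-182 were miR-200c-3p (0.99), miR-183-5p (0.99) and miR-204-3p (0.98). Both of these cluster members thus had each other and miR-200c-3p, a miRNA of epithelial and pituitary cells, among the closest 3. miR-96-5p was most like miR-493-3p (0.96), miR-339-3p (0.95) and miR-200a-5p (0.95), and its r was 0.90 with miR-183-5p and 0.84 with miR-182. miR-375-3p was most like miR-30c-2-3p (0.99), let-7d-5p (0.99) and miR-501-3p (0.99), and its r with miR-182, miR-183-5p and miR-96-5p was 0.69, 0.58 and 0.20. The 3 pairs within the cluster had a median r of 0.90, and 234 other pairs of miRNAs from hairpins within 10 kb of each other had a median of 0.24, ranging from -0.94 to 0.99. Among the 363 others, miR-96-5p ranked only 16 for miR-183-5p and 29 for miR-182. For miR-96-5p, miR-183-5p ranked 7 and miR-182 ranked 19, so miRNAs outside the cluster were often closer.

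miRNAs of cell types that border or could be carried with the ARC were read in the same libraries, by lists chosen with earlier results of these data known. Of the 7 measured miRNAs typical of epithelium and pituitary, 1 was higher, miR-203a-3p, and the median log2 fold change was 0.73. By in situ hybridization in the ARC, the study found miR-203a-3p mainly in neurons and rarely in astrocytes or microglia. Which cells gave its higher value in these libraries was not tested. All 7 had a positive fold change, also under total-count and upper-quartile scaling, and none was at 0 in any library. Their summed normalized count was 8398 to 13572 in the sham libraries and 9892, 25956 and 22245 in CCI-ION replicates 1, 2 and 3, or 0.962, 2.52 and 2.16 times the sham mean. Thus the sum of these miRNAs and the sum of the cluster, at 1.15, 3.37 and 2.38 times its sham mean, were both high in CCI-ION replicates 2 and 3 and near sham in replicate 1, as well as higher in sham replicate 1 than in the other sham libraries. The part of these cells in the values of the cluster was not tested.

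Of these 7 miRNAs, 5 had CCI-ION replicates 2 and 3 above the other 4 libraries, against 16.5% of the 364 miRNAs counted above, and miR-141-3p and miR-203a-3p did not. With means of 45.6 in sham and 60.2 in CCI-ION, miR-141-3p was too low to be among the 364. miR-200c-3p had normalized counts of 3482, 2316 and 2148 in sham and 2240.5, 7048 and 4755 in CCI-ION libraries. miR-200b-3p had 5770.4, 3558 and 3677 in sham and 3939, 12028 and 10078 in CCI-ION libraries. miR-141-3p was at 1.95, 0.547 and 0.499 times its sham mean in sham and 0.877, 0.961 and 2.12 times in CCI-ION libraries, with sham replicate 1 above CCI-ION replicate 2. Neither miR-200c-3p nor miR-200b-3p passed the threshold, with limma adjusted p values of 0.315 and 0.231. miR-203a-3p, in contrast, was high in all 3 CCI-ION libraries, at 534, 332 and 539 against 161 to 171 in sham (log2 fold change 1.45; limma adjusted p = 0.0307), so its order of CCI-ION libraries was not that of the cluster.

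Of the 6 miRNAs typical of the vessel wall, 3 were higher in CCI-ION, miR-199a-5p, miR-143-3p and miR-145-5p, with a median log2 fold change of 0.98 over the list. Their sum was at 1.59, 1.78 and 1.71 times the sham mean in CCI-ION replicates 1, 2 and 3. That sum is carried by miR-143-3p and miR-126a-3p. Of its 6 members, 5 had CCI-ION replicates 2 and 3 above the other 4 libraries, against 16.5% of the 364 miRNAs counted above. In CCI-ION replicate 1, miR-143-3p, miR-145-5p, miR-199a-5p and miR-214-3p were at 1.91, 1.71, 2.40 and 1.74 times the sham mean, and miR-199a-3p was at 0.849 times. Of 5 typical of choroid plexus and ependyma, none passed (median log2 fold change 0.23, sum 1.14, 1.46 and 1.21 times sham), the most abundant being miR-204-5p and miR-34c-5p. Of 3 typical of erythrocytes, none passed (median -0.08), the most abundant being miR-486 and miR-451-5p. That median was the value of miR-486, whereas miR-451-5p had normalized counts of 137 to 242 in sham and 366 to 473 in CCI-ION libraries (log2 fold change 1.07; limma adjusted p = 0.0649). With total-count scaling, a mean of at least 10 or an intensity trend, 1 miRNA of the list passed. Over all miRNAs, these settings gave 51 of 555, 63 of 489 and 88 of 555. Of 7 typical of neurons, 1 was lower, miR-124-3p, and the median was -0.78, with the sum at 0.929, 0.853 and 0.744 times sham. That sum is carried by miR-9a-5p, with a sham mean of 1392227 in a summed mean of 2192455 (log2 fold change -0.17). With an intensity trend 4 of the neuron list passed, and 2 passed with upper-quartile scaling, with a mean of at least 10, with the total without the most abundant miRNA or with 2.5 reads in place of 0. Under the same alternatives 2 to 5 of the vessel wall list passed. Over all miRNAs, 88 of 555 passed with the trend, 44 of them lower, and 94 of 555 with upper-quartile scaling, 84 of them lower. At a mean of at least 10, 63 of 489 passed, 31 of them lower. The total without the most abundant miRNA gave 49 of 555, 19 of them lower, and 2.5 reads in place of 0 gave 47 of 562, 21 of them lower. miR-129-5p of the neuron list had the opposite sign to miR-124-3p, at 1.30, 1.51 and 1.30 times its sham mean in the CCI-ION libraries (log2 fold change 0.45). Leaving out any single library took the calls of the vessel wall list from 3 to 1 or 0 and those of the neuron list to 0. The call of miR-203a-3p was lost without any 1 library except CCI-ION replicate 2. The part of each of these lists in the members' values was not tested.

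In a list of 20 miRNAs studied in pain, which holds none of the members, 2 were higher in CCI-ION, miR-203a-3p and miR-143-3p, and 2 were lower, miR-221-3p and miR-124-3p. The study itself took miR-203a-3p forward as increased from these sequencing data, so its call here was known beforehand and adds no separate evidence. The median log2 fold change of that list was -0.07, near the -0.01 of all miRNAs tested. None of the 20 passed without any 1 of the libraries, except that 3 passed without CCI-ION replicate 2. With an intensity trend 7 of the 20 passed, and with upper-quartile scaling or a mean of at least 10 there were 6. Over all miRNAs, 88 of 555, 94 of 555 and 63 of 489 passed with these alternatives. In a list of 14 measured miRNAs of neuroendocrine cells, including the miR-7, miR-200 and miR-132 families, none passed and the median was 0.01, with 7 of 14 positive. With upper-quartile scaling 2 of the list passed, with an intensity trend 2, and with a mean of at least 10 there was 1. Among all miRNAs tested, 94 of 555, 88 of 555 and 63 of 489 passed in these settings. Its most abundant members, miR-7a-5p and miR-7b, did not pass (limma adjusted p = 0.0828 and 0.0710). Their CCI-ION libraries were all below their sham libraries, as for 21.3% of all miRNAs tested, at 0.341 to 0.570 and 0.434 to 0.648 times the sham mean, whereas miR-375-3p was at 1.26 to 1.98 times.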

How the data were processed

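Total RNA of the ARC was made into sequencing libraries with a TruSeq kit per the labels, and the submitters' processing notes name cutadapt 1.14, Bowtie 1.1.1 and rn6. The counting, the miRNA annotation and the normalization are not given in the sources used here. The authors deposited 1 signal value per miRNA and library, for which the values show read counts divided by a library size factor: all values above 0 were whole multiples of a step, within 0.05 reads, and that step was taken as 1 read. The step was set so that the smallest value above 0 of each library was 5 reads. No value lay between 0 and 5 reads on that scale, and 0 was read as under 5 reads.

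log2(normalized count + 1) was compared with limma 3.58.1 in R 4.3.3 (two-sided, Benjamini-Hochberg over all 555 miRNAs with a mean of at least 1, threshold 0.05, no covariates). On this scale fold changes of low miRNAs are understated where no value is 0. A value of 0 can enlarge them instead, as for miR-183-3p, at -0.67 here and -0.096 with 2.5 reads in place of 0. Ratios between members were compared by exact permutation (scipy 1.17.1), and counting intervals are exact, cover counting error only, and treat reads as independent although PCR copies are not. RefSeq sequences matched 512 of the 562 names. GRCr8 coordinates are of those sequences, not of the files. The members and lists were chosen with earlier results of these data known. Named miRNAs are all arms of the 4 hairpins, miRNAs sharing bases 2 to 7 with a main arm, the 3 most like each main arm, and at most 4 per list, those past the threshold with the largest change or else the 2 most abundant. The miRNAs of the library pattern were named after their values were seen. So were miR-200b-3p, miR-141-3p, miR-199a-3p, miR-214-3p, miR-126a-3p, miR-129-5p and miR-9a-5p among the list members. Alternatives were 3 scalings, filters, 0.1 as the pseudocount, a block on the replicate number and leaving out each library, and, added after seeing the data, an intensity trend and 2.5 reads in place of 0 and, for the arm ratio of miR-183, that replacement and leaving out each library.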

Additional observations from a re-analysis of the deposited data

How the results depend on the processing

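Over all miRNAs, 38 passed the threshold as reported, against 94 with upper-quartile scaling, 63 with a mean of at least 10, 88 with an intensity trend and 7 to 42 when each library was left out. The cause was not tested, beyond the fewer miRNAs tested at the higher mean and the fewer libraries. For arm ratios 30 hairpins passed, against 1 to 40 without single libraries. miR-182 passed with an intensity trend alone (log2 fold change 1.21, adjusted p = 0.0468). Leaving out each library gave log2 fold changes of 0.87 to 1.60 for miR-182, 0.57 to 1.42 for miR-183-5p, 0.78 to 1.54 for miR-96-5p, 0.38 to 0.71 for miR-375-3p and -1.27 to 0.44 for miR-183-3p, the sign of the last changing without CCI-ION replicate 1. With 0.1 as the pseudocount, or without CCI-ION replicate 2 or 3, miR-183-3p changed more in size than miR-182. There miR-183-3p was at -1.68, -1.27 and -1.19 and miR-182 at 1.21, 0.87 and 1.17. Without CCI-ION replicate 2, miR-96-5p at 0.92 was also above miR-182. The difference between groups in the log2 ratio of miR-96-5p to miR-183-5p ranged from -0.0083 without CCI-ION replicate 3 to 0.35, that for miR-182 to miR-183-5p from 0.18 to 0.39 and that for miR-375-3p to miR-183-5p from -0.75 to -0.077. That of the miR-183 arm ratio was 0.98 to 1.98, passing without CCI-ION replicate 1 but not without the other libraries.

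Whether equal replicate numbers pair the libraries was not given in the sources used here. Deviations of same-numbered libraries correlated at -0.089, 0.30 and -0.18, and those of differently numbered libraries at -0.37 to 0.37. With 3 libraries per group these values cannot decide it. With the replicate number as a block, 3 miRNAs and 16 arm ratios passed, and the adjusted p values of miR-182, miR-183-5p, miR-96-5p and miR-375-3p were 0.180, 0.286, 0.259 and 0.223. edgeR and DESeq2 were planned but not run, because the deposited values are normalized and the reads worked out from them rest on the size taken for 1 read. Depth limits miR-183-3p, with at most 8 reads in a library. Each group had only 3 libraries, and what limits the calls of the other arms was not tested.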
